A study of Arabidopsis thaliana with 12 samples.

Results

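The clade A protein phosphatases of type 2C (PP2C) are the enzymes that keep abscisic acid (ABA) signalling switched off in Arabidopsis, and their 9 genes were described here in seedlings lacking the chromatin remodelling ATPase BRM, the bromodomain proteins BRD1, BRD2 and BRD13, or all of these. The members were HAI1, HAI2, HAI3, ABI1, ABI2, HAB1, HAB2, AHG1 and AHG3 (also called PP2CA). They were selected by family membership through their gene identifiers, all 9 of which were present among the 31837 gene records of the deposited table, and the family itself was picked from the measured FPKM values of HAI1, whose large differences between genotypes were already known. The levels and ratios below are therefore descriptions of these genotypes and carry no test.

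Whole seedlings of 14 days, grown in long days in the Col-0 ecotype, were sequenced as total RNA in 12 libraries. These comprised 3 of the wild type (WT), 3 of the brm-1 mutant, 3 of the brd1,2,13 mutant, in which BRD1, BRD2 and BRD13 are affected together, and 3 of brm-1 brd1,2,13, called the combined mutant below. No treatment was named in the labels for any genotype, and each mutant background is represented by 1 line. The table gives 1 level per record and genotype in FPKM (sequenced fragments scaled to transcript length and to library size), in which the 3 libraries had already been combined, so no spread between replicates, no error and no test over samples can be given for any value below, and the depth of the libraries is unknown. A whole seedling mixes many tissues, and a change in the number of expressing cells cannot be told apart from a change in RNA per cell.

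ABA is bound by receptors of the PYR/PYL family, which then dock onto clade A PP2C enzymes and block their active site. Without the hormone these phosphatases remove phosphate from SnRK2 kinases and hold them inactive, and once freed the kinases phosphorylate bZIP transcription factors of the ABF/ABI5 group, which bind ABA-responsive elements (ABRE) built around the letters ACGTG. Most clade A PP2C genes are themselves induced by ABA, which makes them a negative feedback on the pathway. In Arabidopsis BRM is also a substrate of SnRK2 kinases and of clade A PP2C enzymes, and it represses ABI5 in the absence of stress.

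The mutated genes were first inspected. BRM was listed at 17.5 FPKM in WT, 0.0954 in brm-1, 18.5 in brd1,2,13 and 0.120 in the combined mutant. BRD13 was at 14.4 and 18.7 FPKM in WT and brm-1 against 0.223 and 0.0194 in brd1,2,13 and the combined mutant. BRD1 (12.7 FPKM in WT against 4.36 with the BRD mutations alone and 4.76 with brm-1 added) and BRD2 (7.04, 3.05 and 3.08 FPKM likewise) were lower but still present, and BRD2 was at 22.5 FPKM in brm-1. The levels followed the labels, and the deeper losses were those of BRM and BRD13. The reference genes ACT2, UBQ10, PP2AA3 and TIP41L were within 2-fold in each of the 5 comparisons made, and the median log2 ratio over all assessed records lay between -0.0035 and 0.011.

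The regions just upstream of 4 members are shown because the family splits by the ACGTG core there, and because the gene with the widest range of levels, HAI1, has none in this window. Each line gives the 250 bases before the annotated transcript start, 5′ to 3′ on the gene's strand, read from the RefSeq TAIR10.1 genome, with every ACGTG or its reverse complement CACGT in capitals.
HAI1 promoter: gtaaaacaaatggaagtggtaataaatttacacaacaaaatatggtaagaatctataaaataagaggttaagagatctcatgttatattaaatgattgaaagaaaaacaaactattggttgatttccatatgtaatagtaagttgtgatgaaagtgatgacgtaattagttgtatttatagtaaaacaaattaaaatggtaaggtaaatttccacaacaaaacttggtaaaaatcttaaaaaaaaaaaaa
HAI2 promoter: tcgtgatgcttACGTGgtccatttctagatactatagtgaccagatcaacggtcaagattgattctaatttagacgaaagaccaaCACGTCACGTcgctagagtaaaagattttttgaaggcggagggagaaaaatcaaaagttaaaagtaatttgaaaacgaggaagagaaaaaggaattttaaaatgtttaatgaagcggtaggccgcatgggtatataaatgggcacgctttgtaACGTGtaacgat
AHG3 promoter: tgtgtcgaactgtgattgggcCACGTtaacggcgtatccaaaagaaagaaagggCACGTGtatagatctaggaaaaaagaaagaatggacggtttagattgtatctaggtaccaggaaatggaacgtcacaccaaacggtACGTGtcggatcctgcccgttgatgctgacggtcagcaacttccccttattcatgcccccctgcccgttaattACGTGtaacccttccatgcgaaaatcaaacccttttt
ABI1 promoter: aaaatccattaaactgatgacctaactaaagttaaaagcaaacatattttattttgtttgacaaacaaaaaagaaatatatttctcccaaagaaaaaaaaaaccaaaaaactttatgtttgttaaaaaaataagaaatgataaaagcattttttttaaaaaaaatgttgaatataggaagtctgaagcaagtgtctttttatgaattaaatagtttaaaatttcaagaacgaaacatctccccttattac
The windows lie at chr5:23896940-23897189 (minus strand) for HAI1, chr1:2282829-2283078 (minus strand) for HAI2, chr3:3585851-3586100 (minus strand) for AHG3 and chr4:13222377-13222626 (minus strand) for ABI1. Searching ACGTG on both strands, where a palindromic CACGTG counts on each strand as 2 overlapping hits, gave 5 hits for AHG3, 1 such palindrome among them, and 4 for HAI2. HAI3, HAB2 and AHG1 had 2 each, of which the AHG1 pair was 1 palindrome, HAB1 had 1, and HAI1, ABI1 and ABI2 had 0. Of 27443 protein-coding genes, 22.9% held the core in a window of this length and 1.34% held at least 4 hits. The longer form ACGTGGC, found in 3.37% of windows, was present for AHG3, and ACGTGTC, found in 3.68%, was present for AHG3 and HAB1. These longer forms contain the core, so their hits are also core hits. The position of the annotated transcript start matters for HAI1: counted over the 500 bases before the start codon, irrespective of where the transcript begins, HAI1 had 3 hits, HAI2 5, AHG3 5, AHG1 4, HAI3 2 and the other 4 members 0, where 34.9% of genes had any and 5.45% had at least 3. A match is a description of the letters and not a bound site.

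The 9 genes were expressed at levels far apart, which FPKM, being scaled to transcript length, allows to be compared between genes. In WT the most abundant was ABI1, which encodes the phosphatase altered in the ABA-insensitive abi1-1 mutant, at 55.9 FPKM. It was followed by AHG3 at 39.7, HAB1 at 30.1, ABI2 at 23.6 and HAB2 at 23.5. The HAI genes and AHG1 stood below these, with 1.76 FPKM for HAI1, 0.343 for HAI2, 0.0796 for AHG1 and 0.0647 for HAI3. The gap between HAB2 and HAI1 was 3.74 on the log2 scale, whereas ABI2 and HAB2 lay 0.0047 apart and their order cannot be told without replicate values. The same 5 genes were the most abundant in the other 3 genotypes and HAI1 was always sixth, but ABI1 led in WT and brd1,2,13 while AHG3 led in brm-1 and the combined mutant.

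**Figure D1:**
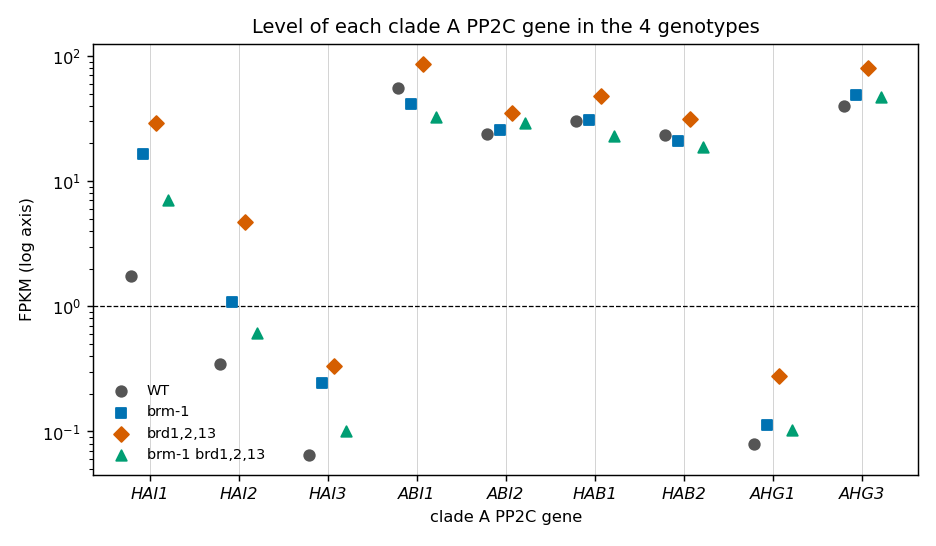
Level of each clade A PP2C gene in FPKM on a log axis, with 1 point per genotype (3 libraries combined by the authors, no error available) and a dashed line at 1 FPKM. The brd1,2,13 point is the uppermost for all 9 genes, from 0.279 FPKM for AHG1 to 86.8 for ABI1, and HAI1 covers the widest range, from 1.76 to 29.0 FPKM.

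HAI1 (AT5G59220, chr5:23894404-23896619 in TAIR10), named for its strong induction by ABA, was listed at 1.76 FPKM in WT, 16.5 in brm-1, 29.0 in brd1,2,13 and 7.02 in the combined mutant. Each mutant was thus above WT, and the combined mutant was below both of its parents. Against WT the log2 ratio was 3.23 in brm-1 (9.40-fold), 4.04 in brd1,2,13 (16.5-fold) and 2.00 in the combined mutant (3.99-fold). Among the records assessed it ranked 106th from the top in brm-1, 28th in brd1,2,13 and 443rd in the combined mutant. The sum of the log2 ratios of brm-1 and brd1,2,13 would place the combined mutant 7.27 above WT.

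HAI2 (AT1G07430, chr1:2280835-2282828) had the same order of genotypes at a lower level, with 0.343 FPKM in WT, 1.09 in brm-1, 4.72 in brd1,2,13 and 0.615 in the combined mutant. Its log2 ratio to WT was 1.67 in brm-1 and 3.78 in brd1,2,13, the latter a 13.8-fold difference that ranked 34th from the top. It reached the floor of 1 FPKM used below only through the mutants in which it was high. HAI3 (AT2G29380, chr2:12608702-12610167), the third gene of this subgroup, was at 0.0647, 0.245, 0.333 and 0.101 FPKM in WT, brm-1, brd1,2,13 and the combined mutant, so it never reached that floor. These are the levels at which FPKM values are least certain, and its order of genotypes is given as listed.

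ABI1 (AT4G26080, chr4:13217485-13222288) was at 55.9 FPKM in WT, 41.1 in brm-1, 86.8 in brd1,2,13 and 32.6 in the combined mutant. It differed from the HAI genes in that both genotypes without BRM were below WT, at log2 ratios of -0.44 for brm-1 and -0.78 for the combined mutant. The table places the neighbouring AT4G26070 at the same locus, and since the sources used here do not say whether strand was used in counting, the split of reads between these records is uncertain. AT4G26070 had another order of genotypes, at 8.05, 14.1, 9.88 and 19.6 FPKM.

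ABI2 (AT5G57050), the close relative of ABI1 known from the abi2-1 mutant, shares its record with AT5G57060 (chr5:23086985-23092468), so its level is that of the pair. The record was at 23.6 FPKM in WT, 25.4 in brm-1, 34.9 in brd1,2,13 and 29.3 in the combined mutant. The largest log2 ratio to WT was 0.57. Its highest and lowest genotypes were 0.57 apart on the log2 scale, the narrowest range of the 9.

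HAB1 (AT1G72770, chr1:27389924-27393315), whose protein binds the SWI/SNF subunit SWI3B in Arabidopsis, was at 30.1 FPKM in WT, 30.9 in brm-1, 47.6 in brd1,2,13 and 23.1 in the combined mutant. The value farthest from WT was that of brd1,2,13, at a log2 ratio of 0.66. Its relative HAB2 (AT1G17550, chr1:6034114-6038692) was at 23.5, 21.1, 31.1 and 18.7 FPKM in the same order and gave a log2 ratio of 0.41 in brd1,2,13. HAB2 shares its locus in the table with AT1G17560, which was at 8.57, 8.55, 7.65 and 8.56 FPKM, and its value is uncertain for the same reason as that of ABI1.

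AHG3 (AT3G11410, chr3:3583883-3585790), a phosphatase known for its part in seed germination and for inhibiting SnRK2.6 and the anion channel SLAC1, was at 39.7 FPKM in WT, 48.6 in brm-1, 80.6 in brd1,2,13 and 47.3 in the combined mutant. It was 2.03-fold higher in brd1,2,13 than in WT, just inside the 2-fold limit and outside it under upper quartile scaling (log2 ratio 0.9987), while brm-1 and the combined mutant lay close together at log2 ratios of 0.29 and 0.25. AHG1 (AT5G51760, chr5:21026916-21029188), a seed phosphatase that is bound by DOG1, was at 0.0796, 0.112, 0.279 and 0.104 FPKM and never reached 1 FPKM.

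All 9 members had their highest value in brd1,2,13. Of the 18269 records with at least 1 FPKM in some genotype, 22.5% were highest in brd1,2,13. Among the 18269 were 7 of the 9 members. They included HAI1, from whose values the family was picked, and HAI2, which reached 1 FPKM only in brm-1 and brd1,2,13. The count of members highest in brd1,2,13 can therefore not be weighed against the 22.5%. The lowest value was in WT for the 3 HAI genes, ABI2, AHG1 and AHG3, and in the combined mutant for ABI1, HAB1 and HAB2.

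For the counts that follow, a record was assessed where it reached 1 FPKM in the higher genotype and was above 0 in the lower, and it was called where its levels were at least 2-fold apart. Since the 5 comparisons share genotypes, they are not independent of each other. HAI1 was picked for its large differences between genotypes, so counts of called members that include HAI1 cannot be weighed against the shares of all records. In brm-1 against WT, 7 members were assessed, of which HAI1 and HAI2 were called higher (6.66% of 17947 records) and 0 lower (5.63%). The median log2 ratio of the 7 assessed members was 0.11 and that of all assessed records -0.0027. HAI2 was assessed only through its mutant levels, so the shares of assessed members are not a summary of the family, and the median over all 9 members was 0.29.

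In brd1,2,13 against WT all 9 log2 ratios were above 0, from 0.41 for HAB2 to 4.04 for HAI1, with a median of 1.02 (0.66 over the 7 assessed members, against 0.0072 for all records). The members called higher were HAI1, HAI2 and AHG3, where 3.22% of 17849 records were called higher. Called lower were 0 members, where 1.29% of records were. The family was picked from the values of HAI1, and HAI2 was assessed only through its level in brd1,2,13. These calls can therefore not be weighed against the 3.22%. Beneath the limit came HAB1 at 1.58-fold, ABI1 at 1.55-fold, ABI2 at 1.48-fold and HAB2 at 1.33-fold. HAI3 and AHG1, not assessed, were listed at log2 ratios of 2.36 and 1.81 between levels under 1 FPKM.

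In the combined mutant against WT, 6 members were assessed and HAI1 was the only member called higher, where 7.89% of 17970 records were, and 0 were called lower (6.66%). The median log2 ratio was -0.04 over the assessed members and 0.31 over all 9, against 0.011 for all records. ABI1, HAB1 and HAB2 were below WT at log2 ratios of -0.78, -0.38 and -0.33.

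The factorial design allows the loss of the BRD proteins to be read with and without BRM. Without BRM, that is in the combined mutant against brm-1, 8 of 9 members were lower and ABI2 was higher, with a median log2 ratio of -0.33 over the 7 assessed members (0.0049 for all records). HAI1 was called lower, 2.36-fold at a log2 ratio of -1.24, where 0.536% of 17724 records were called lower, and 0 members were called higher (0.807%). HAI2 was 1.77-fold lower. BRD loss was therefore accompanied by a higher HAI1 level where BRM was present and by a lower level where it was absent. HAI2 was listed in the same directions, but its fall without BRM, from 1.09 to 0.615 FPKM, lay near the floor and was not called. With a pseudocount of 1 the log2 ratio of that fall was -0.37.

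**Figure D2:**
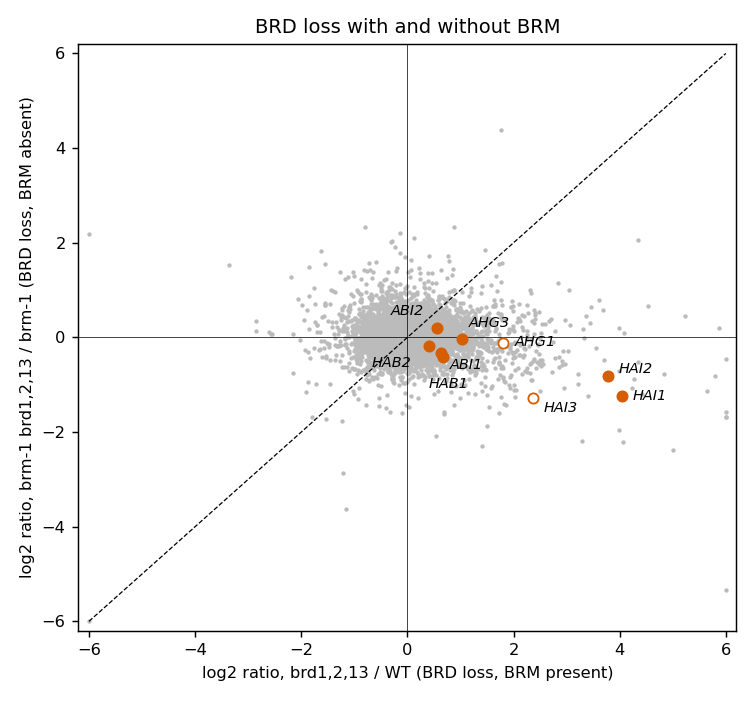
The log2 ratio for BRD loss with BRM present (x axis, brd1,2,13 over WT) against that with BRM absent (y axis, brm-1 brd1,2,13 over brm-1) for 17344 records assessed in both (grey; 7 records beyond 6 are drawn at the edge) and the 9 clade A PP2C genes (orange, open where below 1 FPKM in every genotype). All 9 genes lie to the right of 0 and below the dashed line of equal ratios, with HAI1 at 4.04 and -1.24 and HAI2 at 3.78 and -0.82.

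The loss of BRM in the absence of the BRD proteins was read from the combined mutant against brd1,2,13. All 9 members were lower, with log2 ratios from -0.25 for ABI2 to -2.94 for HAI2 and a median of -1.41 (-1.04 over the 7 assessed members, -0.0035 for all records). HAI2 (7.68-fold), HAI1 (4.13-fold), ABI1 (2.66-fold) and HAB1 (2.06-fold) were called lower, where 5.55% of 17975 records were called lower. Called higher were 0 members (5.46%). HAI2 was assessed only through its level in brd1,2,13, so it could not have been called higher, and the family was picked from the values of HAI1. These calls can therefore not be weighed against the 5.55%. With the BRD proteins present, the same loss of BRM was accompanied by a 9.40-fold higher level of HAI1 and a 1.36-fold lower level of ABI1.

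The difference of these effects, the log2 ratio for BRD loss without BRM minus that with BRM, was below 0 for all 9 members. It was -5.28 for HAI1, -4.61 for HAI2, -3.64 for HAI3, -1.92 for AHG1, -1.09 for HAB1, -1.06 for AHG3, -0.97 for ABI1, -0.58 for HAB2 and -0.36 for ABI2. Of the 7 members with at least 1 FPKM in some genotype, 4 had a difference of -1 or less, as had 4% of 18168 records. These included HAI1, from whose values the family was picked, and HAI2, which reached 1 FPKM only through mutants in which it was high. High levels in those mutants also lower this difference, so the count of 4 cannot be weighed against the 4%. HAB1 at -1.09 and AHG3 at -1.06 lay close to the limit. The median difference was -1.09 over the 9 members and -0.0037 over all records, and the difference itself has no replicate check.

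Summed over the 9 records, the clade A PP2C level was 175 FPKM in WT, 185 in brm-1, 315 in brd1,2,13 and 159 in the combined mutant. The sum in brd1,2,13 was 0.85 above WT on the log2 scale, and leaving out the joined ABI2 record gave 0.89. The 3 HAI genes together moved from 2.17 FPKM in WT to 17.9, 34.01 and 7.73 in brm-1, brd1,2,13 and the combined mutant, and the other 6 from 173 to 167, 281 and 151. HAI1 made up 1.01% of the summed level in WT, 8.94% in brm-1, 9.18% in brd1,2,13 and 4.42% in the combined mutant. Most of the FPKM added in brd1,2,13 therefore came from the abundant members, although the widest ratios were those of the HAI genes.

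**Figure D3:**
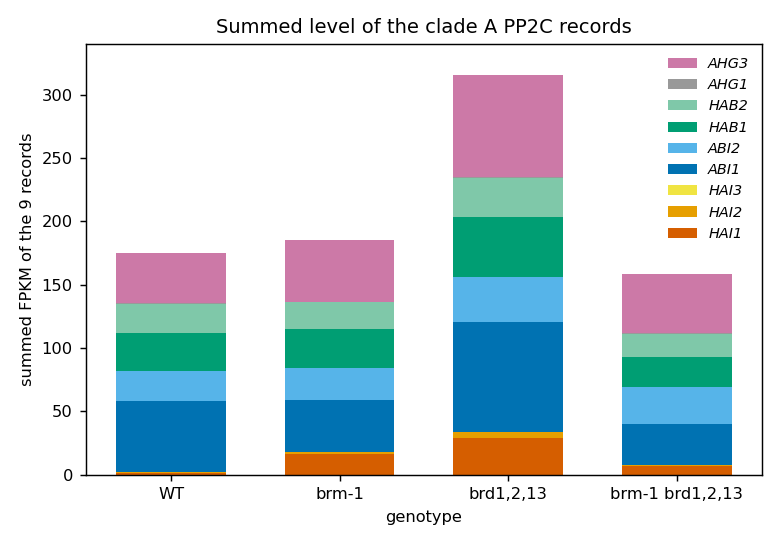
Summed FPKM of the 9 clade A PP2C records in each genotype, stacked by gene from 0, with 1 value per gene and genotype and no error available. The stack reaches 315 FPKM in brd1,2,13 and between 159 and 185 in the other genotypes, and the HAI1 layer grows from 1.76 FPKM in WT to 29.0 in brd1,2,13.

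The receptors that inhibit these phosphatases were inspected next. Called counts of this list and those below stand beside the same shares of all assessed records. These were 6.66% higher and 5.63% lower in brm-1 against WT, 3.22% and 1.29% in brd1,2,13 and 7.89% and 6.66% in the combined mutant. The lists were chosen with earlier results of these data known. Of the 14 PYR/PYL records, 9 were assessed, and PYL5 and PYL6 were called higher in each genotype without BRM, whereas none was called in either direction in brd1,2,13. PYL6 was at 6.88 FPKM in WT, 34.1 in brm-1, 4.67 in brd1,2,13 and 42.8 in the combined mutant. PYL5 was at 33.9, 80.7, 20.7 and 95.6 FPKM and PYL4 at 72.9, 120, 43.5 and 145 FPKM in the same order. These 3 receptor genes were thus high in both genotypes without BRM and below WT in brd1,2,13, where every clade A PP2C gene was highest. PYL9, at 18.7, 12.9, 22.8 and 14.8 FPKM, was instead highest in brd1,2,13 and below WT in both genotypes without BRM. The 13 receptor records of 1 gene summed to 349 FPKM in WT, 488 in brm-1, 292 in brd1,2,13 and 569 in the combined mutant.

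The SnRK2 kinases, the substrates of the phosphatases, were all assessed. Of 10 records 0 were called in brm-1 or the combined mutant against WT, and SnRK2.7 was called higher in brd1,2,13, at 2.54, 3.56, 5.64 and 2.23 FPKM in WT, brm-1, brd1,2,13 and the combined mutant. SnRK2.2 and SnRK2.3, which act with SnRK2.6 in the core pathway, were highest in the combined mutant, at 58.9 and 23.4 FPKM against 36.9 and 12.6 in WT. SnRK2.6, given here to complete the core kinases, was instead highest in brd1,2,13, at 21.1, 20.5, 26.3 and 23.4 FPKM in the order above. SnRK2.9 stood at 2.62, 3.68, 4.33 and 5.03 FPKM. Summed over the 10 kinases the level was 268 FPKM in WT, 293 in brm-1, 309 in brd1,2,13 and 316 in the combined mutant.

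Among the 5 bZIP factors downstream, ABF2 was at 19.6 FPKM in WT, 17.6 in brm-1, 33.4 in brd1,2,13 and 14.3 in the combined mutant, the same order as ABI1. ABF3, in a record joined with AT4G34030, was at 70.2, 92.1, 113 and 89.0 FPKM, and ABF4 at 20.2, 23.5, 25.1 and 22.6 FPKM. Of the 5 records, 2 were called higher in brm-1 (6.66% of all assessed records), 2 in the combined mutant (7.89%) and 1 of 4 assessed in brd1,2,13 (3.22%). ABI5, named here after its values were seen because BRM is known to repress it, was at 0.275, 1.97, 0.799 and 1.72 FPKM, highest without BRM.

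Transcription factors tied to PP2C genes in Arabidopsis gave mixed patterns. HB7 and HB12, homeodomain factors that bind clade A PP2C promoters, were highest in brd1,2,13. HB7, in a record joined with AT2G46670, was at 34.5, 73.4, 112 and 62.1 FPKM in WT, brm-1, brd1,2,13 and the combined mutant, and HB12 at 32.9, 27.6, 75.8 and 24.9 FPKM. MYB44, a repressor of PP2C genes in a record joined with AT5G67320, was instead at 56.01 and 57.4 FPKM in WT and brd1,2,13 and at 114 and 111 in brm-1 and the combined mutant. HB6, a target of ABI1 at the protein level, was at 104, 107, 143 and 134 FPKM. Among 7 protein partners of the phosphatases, 0 were called in any comparison. EAR1, which enhances PP2C activity, was at 73.9 FPKM in WT and between 63.5 and 79.9 in the mutants, and the ubiquitin ligases RGLG1, RGLG5 and PUB13, which target clade A PP2C proteins, had log2 ratios to WT between -0.10 and 0.36.

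Genes of ABA synthesis and breakdown mostly lay within 2-fold of WT, with 1 of 9 called higher in brd1,2,13 and 1 of 9 lower in each genotype without BRM. NCED3, the rate-limiting enzyme of stress-induced ABA synthesis, was at 1.20 FPKM in WT, 1.19 in brm-1, 6.59 in brd1,2,13 and 1.06 in the combined mutant. It was thus high in the genotype in which the phosphatase genes were highest. CYP707A2, an ABA 8′-hydroxylase, was at 14.1, 3.05, 12.9 and 2.55 FPKM, low in both genotypes without BRM, and CYP707A3 at 3.02, 5.30, 2.52 and 4.72 FPKM. ABA1, the zeaxanthin epoxidase, was at 321, 200, 339 and 188 FPKM.

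Known ABA-responsive output genes were mostly highest in brd1,2,13, as 9 of the 10 records at or above 1 FPKM were, against 22.5% of all such records. Of 10 assessed records, 7 were called higher in brm-1 (6.66% of all records), 9 in brd1,2,13 (3.22%) and 6 of 9 in the combined mutant (7.89%). None was called lower. The median log2 ratios were 2.27, 2.55 and 1.09, against -0.0027, 0.0072 and 0.011 for all records. This list was chosen with earlier results of these data known, so its counts are no independent result. The late embryogenesis gene LEA7 was at 0.658 FPKM in WT, 45.4 in brm-1, 99.97 in brd1,2,13 and 14.1 in the combined mutant. The dehydrin RAB18, which appears in 2 records of which the more abundant is given, was at 13.6, 42.9, 98.4 and 27.8 FPKM. The lipid transfer genes LTP3 (4.28, 73.4, 87.3 and 51.0 FPKM) and LTP4 (0.630, 21.5, 31.4 and 9.89 FPKM) lie 32.4 and 28.5 kb from HAI1 on chromosome 5 and had the order of genotypes seen for HAI1. LTP3 and LTP4 are closely similar neighbours, so their split of reads is uncertain, and LEA7 and the RAB18 record overlap other records.

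**Figure D4:**
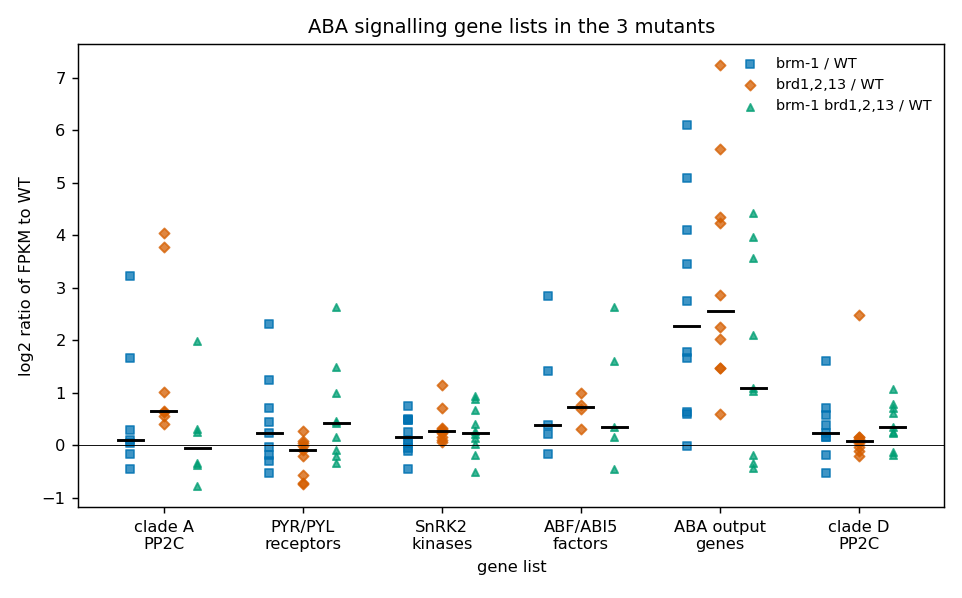
The log2 ratio of FPKM to WT in brm-1 (squares), brd1,2,13 (diamonds) and brm-1 brd1,2,13 (triangles) for each assessed record of 6 gene lists, with the median as a black bar. The clade A PP2C medians are 0.11, 0.66 and -0.04, those of the ABA output genes 2.27, 2.55 and 1.09, and those of the clade D PP2C genes 0.24, 0.09 and 0.36.

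Related PP2C phosphatases outside clade A served for comparison. Clade D PP2C enzymes, which act on plasma membrane proton pumps, were assessed for all 9 records, and 1 was called higher in each of brm-1, brd1,2,13 and the combined mutant. This record, at 12.4, 38.1, 69.2 and 26.4 FPKM, holds PP2C.D9 joined with AT5G06755 and AT5G06760, so its level cannot be given to the phosphatase. PP2C.D1 (90.2, 63.1, 84.0 and 83.2 FPKM), PP2C.D3 (20.3, 26.5, 22.3 and 31.0 FPKM) and PP2C.D8 (14.3, 23.4, 14.7 and 24.8 FPKM) had log2 ratios between -0.10 and 0.13 in brd1,2,13 against WT. The highest genotype was brd1,2,13 for 1 of the 9 clade D records and 2 of 3 clade B records at or above 1 FPKM. The same held for 7 of 7 clade A records, against 22.5% of all such records. The clade A count includes HAI1, from whose values the family was picked, and HAI2, which reached 1 FPKM only in mutants where it was high. It can therefore not be weighed against the 22.5% or the other clades. The clade B genes AP2C1, at 8.11, 8.70, 9.52 and 7.65 FPKM, and AP2C4, at 1.85, 4.32, 2.87 and 5.29 FPKM, had log2 ratios of 0.23 and 0.63 in the same comparison. No test of the difference between the clades was made.

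Records with patterns like those of HAI1 and AHG3 were sought among 12645 other records of 1 gene with at least 5 FPKM in some genotype, by the largest difference over the 3 log2 ratios to WT. For HAI1 the nearest record, AT2G21820, differed by 0.99, at 1.32, 6.23, 12.2 and 3.62 FPKM. It was followed by the glyoxalase gene GLYI7 (0.249, 4.73, 5.33 and 2.07 FPKM), AT5G39520, AT2G44130 and AT4G04223, which differed by between 1.06 and 1.20. AT5G39520 and AT2G44130 overlap other records, and AT4G04223 was highest in the combined mutant, at 40.9 FPKM, unlike HAI1. For AHG3 the nearest were AT3G23930, which differed by 0.090, AT2G01610, MCC1, CEP3 and the potassium channel gene KAT2, which differed by 0.12. No record lay within 0.9 of HAI1, over 4 genotypes of 1 value each. This distance can grow with the size of the ratios, and HAI1 was picked for its large differences. The distances for HAI1 and AHG3 can therefore not be compared, and those for HAI1 do not mark its pattern as unusual.

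The nearest records that do not overlap a member were read on each side. Of these 18 records, 10 were assessed in each comparison, and 0 were called higher or lower in any of the 5. Of all assessed records, between 0.536% and 7.89% were called in a given direction, depending on the comparison. A count of 0 among 10 records is near these shares and does not set the neighbours apart. AT5G59210, 738 bases from HAI1, was at 19.0 FPKM in WT, 18.4 in brm-1, 19.4 in brd1,2,13 and 19.3 in the combined mutant. SMO2-1, a sterol methyl oxidase gene 533 bases from HAI2, was at 17.3, 15.9, 15.2 and 14.2 FPKM. HAB1, HAB2 and AHG3 had no assessed neighbour, so for these members nothing can be compared. AT4G26070, which overlaps the ABI1 locus and is not among the 18, had a log2 ratio of 1.29 in the combined mutant against WT, where ABI1 was at -0.78.

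Markers of tissues and cell types were read because whole seedlings were sampled. The 5 guard cell markers, cells in which ABA signalling is active, summed to 65.1 FPKM in WT, 28.4 in brm-1, 52.0 in brd1,2,13 and 29.9 in the combined mutant. Called lower were 3 of 5 in brm-1 (5.63% of all assessed records) and 2 of 5 in the combined mutant (6.66%). MYB60 was at 24.7, 8.05, 15.5 and 8.58 FPKM, FAMA at 20.3, 10.2, 15.9 and 10.07 FPKM and KAT1 at 12.9, 6.43, 12.8 and 6.81 FPKM. HT1 and SLAC1, both under 5 FPKM, are named to complete the list. HT1 was at 4.39, 2.03, 4.22 and 2.62 FPKM. SLAC1 was at 2.84, 1.67, 3.55 and 1.84 FPKM, the 1 guard cell marker highest in brd1,2,13. The 5 root markers summed to 57.3 FPKM in WT and to 45.2, 38.3 and 38.9 in brm-1, brd1,2,13 and the combined mutant, and 0 were called. CASP1 was at 15.9, 10.7, 8.60 and 8.98 FPKM, and PIN2, highest in brm-1, at 6.99, 7.87, 4.74 and 5.91 FPKM. The 5 leaf markers, among them LHCB2.1 at 4807, 3270, 4214 and 2919 FPKM, summed to between 28646 and 35302 FPKM, so that the labelled tissue was present in every genotype. Of the 5 seed markers, OLEO4 was at 13.0 FPKM in WT against 2.81, 8.68 and 3.20 in the mutants, and the other 4 were at 0.370 FPKM or less, with OLEO1 and CRC at 0 in WT and brd1,2,13. No marker list had its highest sum in brd1,2,13, although the single marker SLAC1 was highest there. A sum can rest on few genes. In WT, OLEO4 made up 13.0 of the 13.1 FPKM of the seed list. RBCS1A made up 16716 of the 35302 FPKM of the leaf list. The part of tissue make-up in the levels of the phosphatase genes was not tested.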

How the data were processed

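Total RNA of 12 libraries, 3 per genotype, was sequenced by the authors. Tools listed in the submitters' processing notes were TopHat (without a version), Cuffdiff 2.1.1 and Cufflinks 2.1.1, and the genome build listed was TAIR10. The deposited table holds, for each of 31837 gene records, 1 FPKM value per genotype, computed by the authors from the 3 libraries together; the normalization between libraries and the use of strand are not given in the sources used here. Its 5 columns with the authors' own fold changes, test statistics, p-values, q-values and significance calls were not used, and 0 columns held values of single libraries.

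From the FPKM values the log2 ratio of 2 genotypes was computed without a pseudocount, with Python 3.11.15, pandas 2.3.3 and numpy 2.4.6, and the procedure was tested on simulated data. A record was assessed at 1 FPKM or more in the higher genotype and above 0 in the lower, and called at 2-fold. This is a limit on size, not a test. Records that join several genes numbered 2093 (with those naming no gene) and 7465 overlapped another; listed genes in such records are uncertain. Starts, counted from 0 in the table, were raised by 1. Promoter windows and gene symbols came from RefSeq TAIR10.1, in which 0 of the 9 member loci had the same start and end, so windows are given in that annotation only.

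The 9 members and the 16 gene lists (111 entries, all found) were chosen with earlier results of these data known. From each list the text names up to 4 genes with the largest log2 ratio to WT in any mutant among those at 5 FPKM or more, with exceptions stated; all members, the mutated genes, the 5 records most like HAI1 and AHG3 and the nearest neighbours were examined. Alternatives were other fold limits, FPKM floors, pseudocounts and scalings.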

Additional observations from a re-analysis of the deposited data

Results flagged for a closer look

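The log2 ratio for BRD loss without BRM differed from that with BRM by -5.28 for HAI1 and by -4.61 for HAI2. These values stand out because the levels of both genes were higher by at least 1.5-fold on BRD loss in plants with BRM and lower by at least 1.5-fold on BRD loss in plants without it. For HAI2 this rests on low levels: with a pseudocount of 1 its log2 ratio for BRD loss without BRM was -0.37, which is less than 1.5-fold, and the difference was -2.46. The difference was not tested for either gene, since the table holds 1 value per genotype.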

How the results depend on the processing

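No paired analysis was possible because each genotype has 1 combined value, and for the same reason no replicate could be left out. At a limit of 1.5-fold, the members called numbered 5 rather than 3 in brd1,2,13 against WT, 2 rather than 1 in the combined mutant against WT, and 2 rather than 1 in the combined mutant against brm-1. Of all assessed records, 6.89%, 15.3% and 2.6% were called higher at this limit in the same order, and 4.36%, 14.2% and 2.06% lower. At 3-fold the members called numbered 0 in the combined mutant against brm-1 and 2 rather than 4 in the combined mutant against brd1,2,13. Of all assessed records, 0.197% were called higher and 0.169% lower in the former comparison, and 2.22% and 2.14% in the latter. Without the FPKM floor, 5 members were called in brd1,2,13 against WT, where HAI3 and AHG1 entered at levels under 1 FPKM, and 2 in the combined mutant against brm-1, where HAI3 entered. Of all records assessed without the floor, 5.53% were called higher and 3.34% lower in the former comparison, and 3.1% and 2.65% in the latter. In brm-1 against WT 1 member rather than 2 was called with a floor of 5 FPKM and with a pseudocount of 1, since HAI2 dropped out. Of all assessed records, 5.36% were called higher with that floor and 4.62% with that pseudocount. The other counts of members, including the 4 members with a difference of BRD effects of -1 or less, stayed within 1.5 times. Within that margin, AHG3 lost its call in brd1,2,13 against WT under upper quartile scaling (log2 ratio 0.9987), leaving 2 members called, where 3.08% of all records were called higher. With a floor of 5 FPKM HAI2 lost its calls in brd1,2,13 against WT and in the combined mutant against brd1,2,13, leaving 2 and 3 members. At that floor 1.84% of all records were called higher in the former comparison and 4.23% lower in the latter. Of 54 single ratios and differences, 0 changed sign under any pseudocount or scaling, and the scalings moved them by at most 0.0353. A pseudocount of 1 moved them by up to 3.14, at the low levels. The counts over all records depend on the same choices: in brd1,2,13 against WT 574 higher and 230 lower records became 1172 and 708 without the floor. Depth and replicate spread are unknown, which limits every value under 1 FPKM most.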
